A study of Mus musculus with 6 samples.

Results

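Complex events are alternative RNA processing events that combine several choices, and those described here are the ones with an exclusion path, which skips a segment, and an inclusion path, which keeps it. All event names with the type "complex" were taken from a table of splicing-sensitive Affymetrix MJAY array data, which gave 1259 of 13002 events (9.68%), in 1148 of 7788 genes. The type came from the table's annotation and not from a measured value. Both paths were measured in total RNA of whole brain from mice of the B6.CAST congenic line, 1 array per animal. The 3 Nxf1 B6 animals were homozygous for the B6 (C57BL/6) allele of Nxf1, the mRNA nuclear export factor gene, and the 3 Nxf1 CAST animals for the allele of Mus musculus castaneus, which lies in a congenic segment of chromosome 19 with its neighbouring genes. Each of 3 litters gave a same-sex pair with both genotypes, which was female in 2 pairs and male in 1. They were 46 days old in the first pair, 23 days old in the third, and in the male pair 23 days old with Nxf1 CAST and 22 days old with Nxf1 B6. Intensities were available as 1 pooled value for a set A and 1 for a set B, so no spread between animals, replicate check or test could be computed here, and the authors' own scores and q-values were not used. Genotypes of the sets are not written in the table, so each direction is given as set B over set A and not by genotype. Because the brains were whole, fewer cells of a type and less of an RNA per cell cannot be told apart in these values.

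An intron is removed where the spliceosome joins a donor site to an acceptor site, and a gene makes several mRNAs where more than one donor, acceptor, exon, start or end can be used. Simple events differ in a single such choice, such as a cassette exon that is kept or skipped. Complex events join 2 or more of them, for example skipping together with a shifted splice site. Brain is a tissue rich in alternative splicing, and many ion channels, synaptic proteins and cytoskeletal proteins exist there as several isoforms.

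Of the complex events, 2 had primers designed by the study for gel assays of their isoforms. These oligonucleotides are the sequences at hand that the study listed under the names of complex events. The study chose events for these assays by extreme scores in the same array comparison. That both passed the fold threshold described further on largely follows from this choice. Their positions were not checked here, and the gel measurements were not analysed here. They are printed 5′ to 3′ as designed, in lower case throughout, with no part singled out. The Mkln1 event has 3 primers and the C430048L16Rik event has 2.
Mkln1 primer 1: agatgttcccttgtcgattca
Mkln1 primer 2: gggcacaaaagcagtcaaa
Mkln1 primer 3: atgttccagtgcaatcttgg
C430048L16Rik primer 1: aggggagtgtggtctccatt
C430048L16Rik primer 2: ctgtcaagatcccaggaagc
Mkln1 encodes muskelin, a kelch-repeat protein of a ubiquitin ligase complex. C430048L16Rik is listed by RefSeq as Rbm12b2, a gene of an RNA-binding protein family. The table placed the Mkln1 event at chr6:31378225-31381139 and the C430048L16Rik event at chr4:12016874-12020911, and it does not state its genome assembly.

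To ask how far complex events differed between the sets, the log2 ratio of exclusion to inclusion intensity in set B over set A was taken for each event. A value above 0 means relatively more exclusion in set B, and an absolute value above 0.5, a 1.41-fold change, is called past the fold threshold. Intensities were given for 1253 of the 1259 complex events. Of these, 105 were past the threshold (8.38%), against a background of 7.34% over all 12948 events with intensities. More exclusion in set B was seen in 74 of the 105 (70.5%) and less exclusion in 31. Among all events past the threshold 62.7% had more exclusion in set B. Over all events, past the threshold or not, the background was 4.6% for more exclusion and 2.73% for less. These directions over all events also count complex events without an exclusion path, 41 of them past the threshold. In that type the sign gives no direction of exclusion. The median absolute change was 0.17 for complex events and 0.18 for all events. Changes above 1 in absolute size occurred in 5 complex events, and the whole range ran from -1.05 to 1.36. Complex events as a class thus stood near the background in share and in size.

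**Figure D1:**
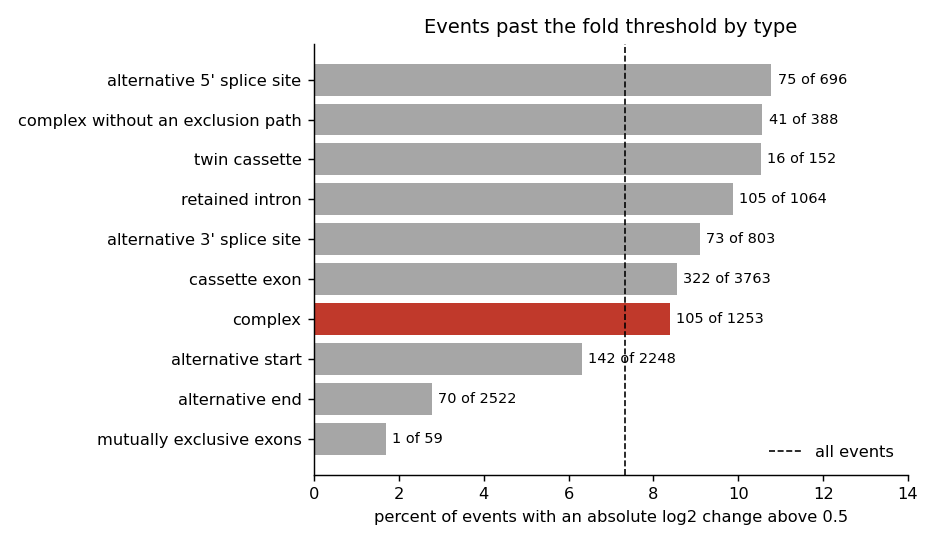
Percent of events past the fold threshold (x axis) for each event type (y axis), with counts beside the bars and the percent over all events as a dashed line. Complex events (red) had 105 of 1253 past the threshold, close to cassette exons with 322 of 3763.

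The event types with the most similar structure gave shares on both sides of this value. Cassette exons had 322 of 3763 events past the threshold (8.56%), complex events without an exclusion path 41 of 388 (10.6%), twin cassettes 16 of 152 (10.5%) and mutually exclusive exons 1 of 59 (1.69%). For complex events without an exclusion path the path that changed most stood for the event, which can raise their share. More exclusion in set B made up 70.5% of the complex events past the threshold and 64.9% of the cassette exons past it. The same share was 75% for twin cassettes and 62.7% for all events past it. None of these differences could be tested, since the values of a set were pooled.

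The paths of the 105 complex events past the threshold mostly moved apart, which choosing events by a large change of the ratio itself favours. In 89 of them one path was brighter and the other dimmer in set B (84.8%, and 82.1% of all events past the threshold). The exclusion path changed more than the inclusion path in 71 of the 105 (67.6%), against 73.7% over all events past the threshold. The 73.7% also counts complex events without an exclusion path, of which 40 of 41 were scored this way. Among the 74 events with more exclusion in set B the exclusion path changed more in 56, and among the 31 with less exclusion it did so in 15. The exclusion path was the dimmer one in set A in 78.4% of the 74 and in 29% of the 31. Over all complex events this share was 58.7%. The set A intensities also enter the ratio that sorted these events, which itself favours such a contrast. Over the 105, the path that was dimmer in set A changed more in 71, and the part of brightness was not tested. The exclusion intensity alone was past the threshold in 36 events, the inclusion intensity alone in 18, both in 0, and neither in 51. In those 51 the threshold was passed by the sum of smaller changes of both paths. Over all 1253 complex events the SD across events was 0.24 for the log2 change of the exclusion path and 0.21 for that of the inclusion path.

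**Figure D2:**
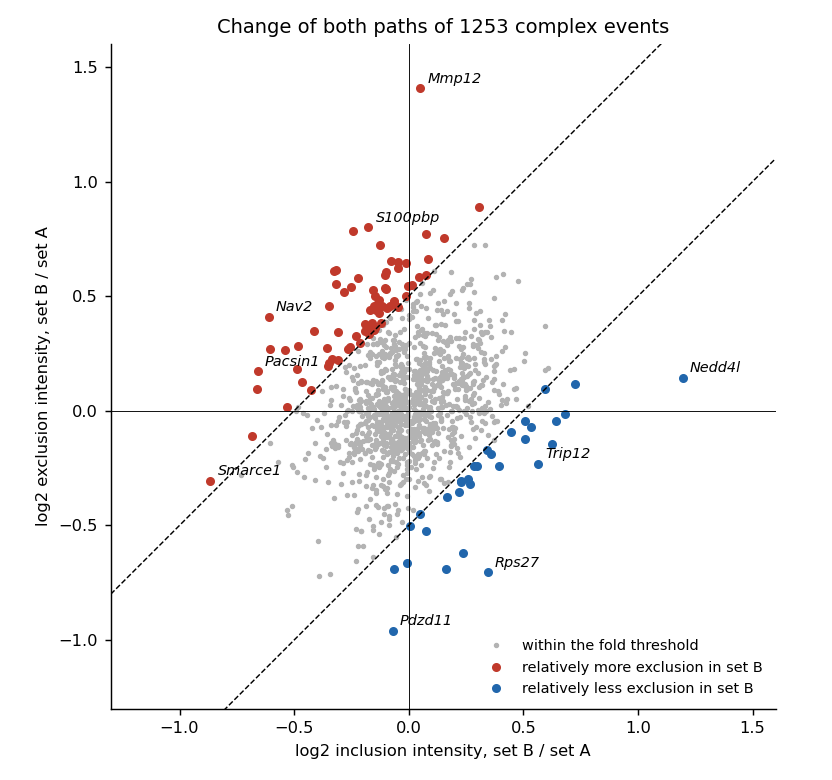
Log2 change of the exclusion intensity (y axis) against that of the inclusion intensity (x axis), set B over set A, for 1253 complex events, each a point. Dashed lines mark the fold threshold; red points had relatively more exclusion in set B (74), blue points relatively less (31).

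The 12 complex events with the largest relative loss of exclusion in set B, among those with all 4 intensities at or above 102, fell into those where the inclusion path brightened and those where the exclusion path dimmed. The value of 102 is the 10th percentile of all deposited intensities, and 982 complex events met it. The inclusion path carried most of the change in Nedd4l, a ubiquitin ligase that targets membrane channels. Its inclusion intensity went from 1096 in set A to 2509 in set B, while exclusion was 4582 and 5062, a log2 change of -1.05. Trip12, another ubiquitin ligase, had inclusion intensities of 175 and 259 with exclusion at 1894 and 1613 (log2 change -0.80). In these events the exclusion path stayed the brighter one in both sets, for Nedd4l in the segment given here. Nedd4l has a second segment, described further on, where the change was smaller (-0.26) and inclusion was the brighter path.

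Ciz1, which encodes a nuclear matrix protein of DNA replication, had inclusion intensities of 307 in set A and 473 in set B beside exclusion intensities of 1229 and 1112 (log2 change -0.77). In Ccdc64, listed by RefSeq as Bicdl1, an adaptor for dynein transport, inclusion was 198 and 318 and exclusion 320 and 317 (-0.70). In Parp6, a mono-ADP-ribosyltransferase, inclusion was 540 and 844 and exclusion 4332 and 4198 (-0.69). The exclusion intensities of these genes hardly differed between the sets. In Itga6, the laminin-binding integrin alpha 6, inclusion went from 350 to 497 and exclusion from 498 to 457 (-0.63). Avpr2, the V2 vasopressin receptor, was similar, with inclusion at 374 and 491 and exclusion at 317 and 268 (-0.63). In Itga6 the brighter path was exclusion in set A and inclusion in set B.

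The exclusion path dimmed instead in the other events of this kind. Rps27, a small-subunit ribosomal protein, had exclusion intensities of 176 and 108 and inclusion intensities of 130 and 165 (log2 change -1.05). Ribosomal protein genes have near-identical copies in the genome, and whether the probe sets separate them is not given in the sources used here. In Pdzd11, a small PDZ-domain scaffold protein, exclusion was 210 and 108 and inclusion 877 and 835 (-0.89). In Sorcs1, a sorting receptor of neurons, exclusion was 201 and 127 while inclusion was 198 and 197 (-0.66). The Pdzd11 and Rps27 values in set B both lay just above the 102 used as the lower limit.

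At the other end, the 12 complex events with the largest relative gain of exclusion in set B mostly had a brighter exclusion path. Plch2, a phospholipase C of the brain, had exclusion intensities of 264 (set A) and 454 (set B) and inclusion intensities of 180 and 152 (log2 change 1.03). S100pbp, which encodes a binding partner of a calcium-binding S100 protein, had exclusion at 175 and 305 and inclusion at 1139 and 1008 (0.98). In Cldn12, a claudin of tight junctions, exclusion was 124 and 189 and inclusion 242 and 193 (0.93), so that the paths became about equally bright in set B.

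Pabpc4, a cytoplasmic poly(A)-binding protein, had exclusion intensities of 174 and 255 and inclusion intensities of 375 and 301 (log2 change 0.87). In Necab3, a neuronal calcium-binding protein, exclusion was 256 and 422 and inclusion 350 and 321 (0.85). Urod, an enzyme of heme synthesis, showed exclusion at 366 and 576 and inclusion at 483 and 458 (0.73). In both Necab3 and Urod the inclusion path was brighter in set A and the exclusion path in set B. In Tubgcp5, a subunit of the gamma-tubulin complex, exclusion was 129 and 193 and inclusion 440 and 377 (0.80). In Zfp523, a zinc finger protein, exclusion was 380 and 595 and inclusion 902 and 872 (0.70).

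The inclusion path changed more than the exclusion path in 3 of these 12 events. Pacsin1, a membrane-bending protein of synaptic vesicle endocytosis, had inclusion intensities of 1456 in set A and 922 in set B with exclusion at 500 and 564 (log2 change 0.83). In Arfgap1, an activator of GTP hydrolysis by Arf1 at the Golgi, inclusion was 676 and 483 and exclusion 734 and 892 (0.77). In Zfp1, another zinc finger protein, inclusion was 192 and 144 and exclusion 459 and 584 (0.76), so that both paths contributed nearly alike. The changes of Pacsin1 and Arfgap1 were the reverse of the pattern in Nedd4l and Parp6, where inclusion was brighter in set B. Ppp1r14b, an inhibitor of protein phosphatase 1, had exclusion at 304 and 458 and inclusion at 498 and 464 (0.69). Its event lay on chromosome 19 at chr19:7051097-7051492, close to the congenic interval.

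**Figure D3:**
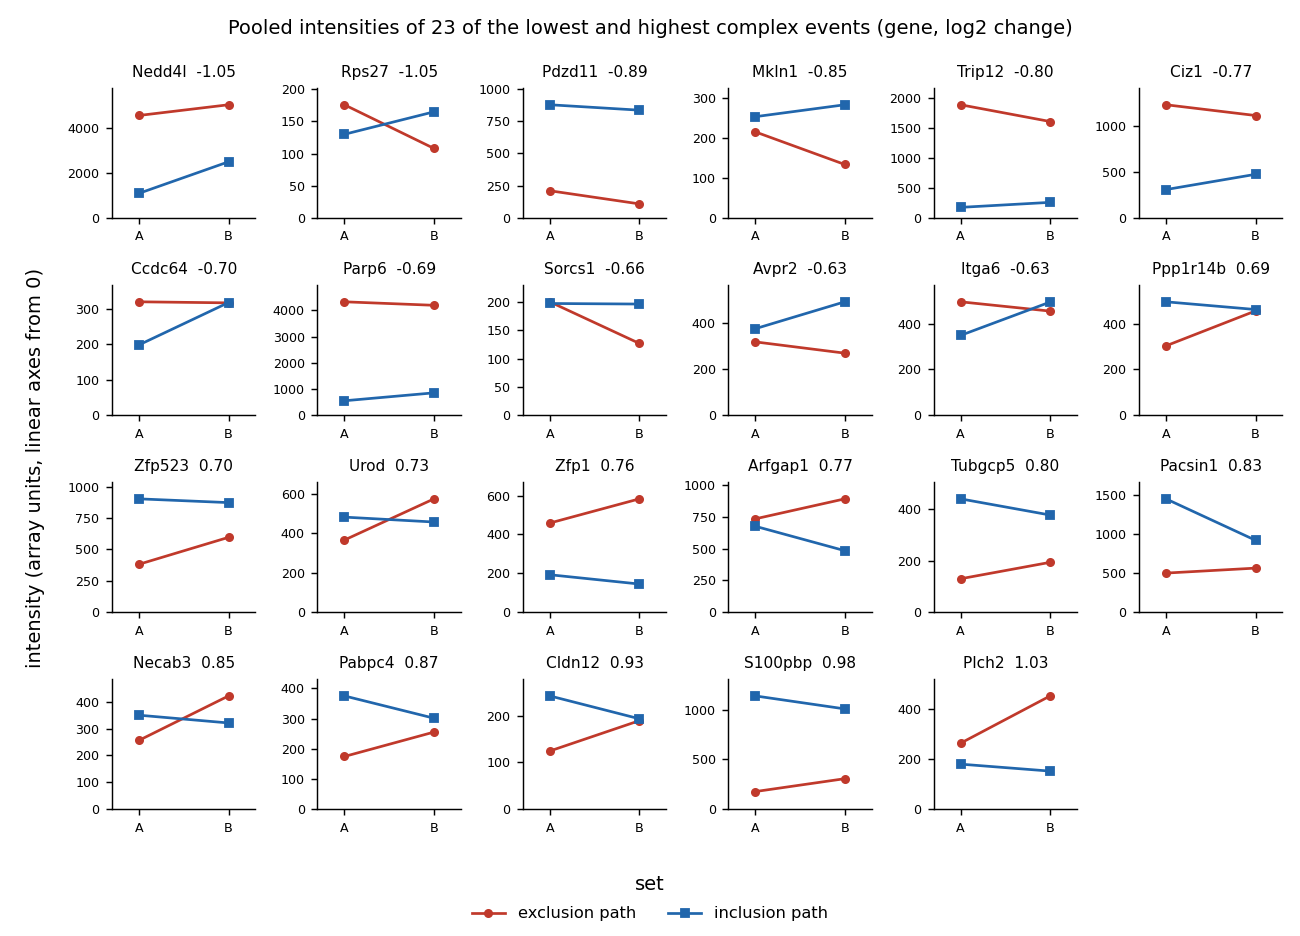
Pooled exclusion (red) and inclusion (blue) intensities in sets A and B, on linear axes from 0, for 23 of the 12 lowest and 12 highest complex events, each panel titled with its gene and log2 change. In Nedd4l inclusion went from 1096 to 2509, and in Plch2 exclusion went from 264 to 454.

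Both events with gel primers were past the threshold, in opposite directions. Events for the gel assays were picked by the study from both extremes of this array comparison, so this is no separate evidence. In Mkln1 exclusion went from 216 to 134 between sets A and B and inclusion from 254 to 284, a log2 change of -0.85. Mkln1 had 1 other event on the array, an alternative end with a log2 change of -0.06. In C430048L16Rik exclusion was 79 and 107 and inclusion 511 and 455, a log2 change of 0.61. Its exclusion path in set A lay under 102, and with 50 added to every intensity the change became 0.44, under the threshold.

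To look at the kinds of genes that hold complex events, 16 gene families were matched by symbol, and 424 complex events of 373 genes belonged to at least 1 of them. Among 29 events of ion channels, 1 had more and 1 less exclusion in set B past the threshold. The two-pore potassium channel Kcnk2 had changes of 0.45 and -0.26 in its complex events. Among 11 events of neurotransmitter receptors, 1 was past the threshold. This was in Oprl1, the nociceptin receptor, where exclusion was 200 and 300 and inclusion 2005 and 2065 (0.54), and its other complex event changed by -0.29. Gria1, a subunit of AMPA receptors, changed by 0.24.

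Synaptic vesicle and scaffold proteins had 29 events, of which 3 were past the threshold (10.3%, beside 7.34% of all events), all with more exclusion in set B. They were Itsn1, an endocytic scaffold (log2 change 0.56), Erc1, an active zone protein (0.55), and the syntaxin Stx8 (0.80). Stx8 was counted by its symbol, and whether it acts at synapses was not examined. Pacsin1, given above for synaptic vesicle endocytosis (0.83), was past the threshold but not matched by the symbol patterns of this family. In Itsn1 exclusion was 287 (set A) and 386 (set B) and inclusion 849 and 775. In Erc1 exclusion was 193 and 252 and inclusion 707 and 632. Stx8 was dim, with exclusion at 89 and 122, and with 50 added to every intensity 1 of the 29 events was past the threshold. Snap91, a clathrin assembly protein of nerve terminals, stayed under the threshold at 0.37 with bright paths, exclusion being 829 and 1026 and inclusion 3386 and 3233.

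Microtubule and motor proteins had the highest share of the families, with 5 of 26 events past the threshold (19.2%), beside the 7.34% over all events. All 5 had more exclusion in set B, and the median change of the family was 0.14, against 0.03 for all complex events. Beside Tubgcp5 they were the ligase Mid1, which binds microtubules (log2 change 0.70), the katanin-like Katnal2 (0.64), the mitotic kinesin Kif15 (0.56) and the microtubule-associated Mtap9 (0.56). Several of these were dim. Exclusion was 90 and 137 in Mid1 and 64 and 74 in Mtap9, inclusion was 99 and 92 in Katnal2, and all 4 intensities of Kif15 lay between 103 and 153. Of the 5, Tubgcp5 and Kif15 had all intensities at or above 102, and with 50 added to every intensity 2 of the 26 events were past the threshold. The tubulin-modifying enzyme Ttll11 changed by -0.36, with exclusion at 242 and 173. Members were matched by symbol, so the shared direction holds for the matched genes only. Ccdc64, the adaptor for dynein transport given above, was past the threshold with less exclusion (-0.70) and was not matched. Eml1, a microtubule-associated protein, was past it with more exclusion (0.50) and was not matched either.

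The actin, myosin, spectrin and ankyrin proteins had 33 events and 0 past the threshold. The largest changes among them were 0.47 in Dmd, the dystrophin gene, -0.41 in Ppp1r9a, a neurabin of dendritic spines, and -0.38 in Mylk, the myosin light chain kinase. With families of this size, a share of 0 or of 19.2% rests on few events, and no family can be called different from the rest.

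Among 24 events of protein and lipid kinases, 2 were past the threshold, both with less exclusion in set B. Camk2b, the beta subunit of the calcium/calmodulin-dependent kinase of synapses, had exclusion at 468 (set A) and 325 (set B) and inclusion at 4973 and 5238 (log2 change -0.60). Its 4 other events changed by -0.05 to 0.17. Gsk3a, a kinase of glycogen and Wnt signalling, had exclusion at 1750 and 1237 and inclusion at 2537 and 2543 (-0.50). Among 8 phosphatase events, Ppp1r14b was the 1 past the threshold, and the myotubularin Mtmr12 changed by 0.32.

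GTPases and their regulators had 2 of 28 events past the threshold (7.14%). Beside Arfgap1 this was Rgs7, which acts on heterotrimeric G proteins rather than on small GTPases, with exclusion at 1455 (set A) and 1232 (set B) and inclusion at 165 and 203 (log2 change -0.54). Dock6, an exchange factor for Rac and Cdc42, changed by -0.45. Cell adhesion and axon guidance genes had 1 of 21 past the threshold, which was Itga6. The neural adhesion gene Chl1 changed by 0.20 and 0.06 in its complex events, and the ephrin receptor Epha5 by 0.34. The median absolute change of the adhesion family, 0.09, was the lowest of the 16 families, where complex events overall had 0.17.

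Genes that act on RNA and chromatin gave shares on both sides of the 7.34% over all events. RNA processing factors had 1 of 20 events past the threshold (5%), that of Pabpc4. Ewsr1, an RNA-binding protein, changed by 0.47 in one complex event and by 0.06 in the other. Luc7l2, which is related to a component of the U1 snRNP, changed by -0.43 and 0.26 in 2 complex events over the same segment. Chromatin regulators had 4 of 25 past the threshold (16%), 3 of them with more exclusion in set B. In Smarce1, a subunit of the BAF remodelling complex, both paths were dimmer in set B, with exclusion at 288 and 233 and inclusion at 441 and 242 (0.56). With 50 added to every intensity this became 0.49, under the threshold. Another complex event of Smarce1, inside the same span, changed by 0.004, with exclusion at 655 and 581 and inclusion at 408 and 361. Jmjd4, a JmjC-domain protein, had exclusion at 522 and 762 with inclusion at 276 and 275 (0.55). The coactivator Ncoa1 (0.53) and the heterochromatin protein gene Cbx1 (-0.53) each had an intensity under 102, and with 50 added 1 of the 25 events was past the threshold. Chd7, a remodeller of neural crest development, changed by 0.45.

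Transcription factors and zinc finger proteins, the largest family, had 5 of 69 events past the threshold (7.25%), close to the share over all events. Zfp697 was the 1 with less exclusion in set B, with inclusion at 696 (set A) and 1007 (set B) and exclusion at 332 and 316 (log2 change -0.60). A second complex event of Zfp697 changed by 0.10. In the ubiquitin pathway 1 of 29 was past the threshold, that of Nedd4l. Fbxw5, an F-box protein, lay just under it at -0.50, and the imprinted Usp29 changed by 0.43 and -0.02. Trip12 is a ubiquitin ligase by function but was not matched by the symbol patterns of this family.

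With 50 added to every intensity, 0 events stayed past the threshold among neurotransmitter receptors and in the next families, the transporters, mitochondrial genes and immune genes, and 1 each among ion channels, kinases and GTPases. Solute carriers, ABC transporters and ion pumps had 3 of 36 events past the threshold (8.33%). They were the nucleoside transporter Slc29a1 (log2 change -0.56), the nucleotide-sugar transporter Slc35b1 (0.50) and the amino acid transporter relative Slc6a18 (0.51). In Slc29a1 exclusion was 360 and 293 and inclusion 234 and 280. The transporter Abca5 changed by -0.43. Among 15 events of mitochondrial respiration, import and ribosome genes, 1 was past the threshold, that of the complex I subunit Ndufa7 (-0.55), where inclusion was 296 and 380 and exclusion 600 and 526. Idh3g of the citric acid cycle changed by 0.28 and Cox6b2 of cytochrome oxidase by 0.31. Immune receptors and cytokines had 2 of 25 past it, the cytokine Il17d (-0.50) and the receptor Il15ra (0.61). The complement gene C4a changed by -0.39 and the receptor Csf3r by 0.33.

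**Figure D4:**
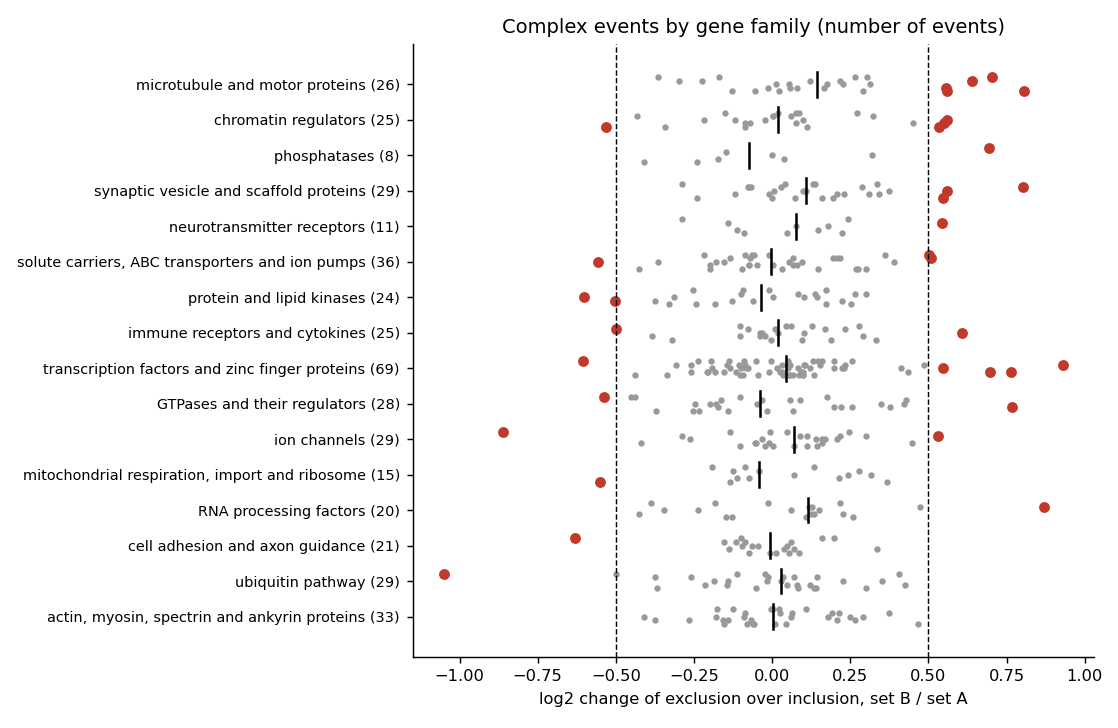
Log2 change of exclusion over inclusion, set B over set A (x axis), of complex events in 16 gene families (y axis, with the number of events), each point an event and each black bar the family's median. Red points are past the dashed fold threshold, 5 of 26 in the microtubule and motor family and 0 of 33 in the actin family.

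Most genes with a complex event had a single one, so agreement within a gene could be read in few cases. Of 1142 genes with values, 99 had 2 or more complex events, up to 4 in Cd44 and Crem. At least 1 complex event was past the threshold in 16 of the 99 genes. In Ece2, an endothelin-converting enzyme, 2 complex events changed alike by 0.52 and 0.50, the latter just under the threshold. In Plch2 the event at 1.03 stood beside another at 0.03, whose exclusion was 827 and 831. Over the 99 genes the median difference between the highest and the lowest change was 0.29.

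Complex events often covered the same stretch as other events of their gene. Of the 1253, 564 overlapped at least 1 other event (45%), and 49 of the 105 past the threshold did. In 8 of those 49 (16.3%) an overlapping event was itself past the threshold, against 58 of 515 (11.3%) of the other complex events with an overlap. The 8 genes were 6330416G13Rik, Bin1, Ciz1, Gtpbp8, Katnal2, Mid1, Nav2 and Rgs7. In Bin1, a membrane-bending protein, the complex event changed by 0.60 and a cassette exon by 0.52. In Nav2, a neuron navigator gene, the complex event changed by 1.02 and an alternative start by 0.87. In Rgs7 the complex event changed by -0.54 and a complex event without an exclusion path by -0.57. The latter value is that of the path that changed most, so its sign gives no direction of exclusion. The signs were opposite in Ciz1, where an alternative start changed by 0.71, and in 6330416G13Rik, where the values were 0.59 and -0.55.

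Events of other types in the same genes were also counted. Of 142 such events in genes with a complex event past the threshold, 15 were past it (10.6%), against 90 of 1264 (7.12%) in genes whose complex events all stayed under it. In Ccdc64 a cassette exon next to the complex event changed by 0.62, opposite to the -0.70 of the complex event. Events of 1 gene can share probe sets and exons, so these are not independent measurements. Exclusion intensities identical to those of another event of the gene were found for 0 complex events, and identical inclusion intensities for 1.

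Genes near Nxf1 were of interest because the congenic segment differs in sequence between the genotypes. The interval was taken from the outermost events of 5 genes placed in it by the study, chr19:7053631-11866235, which is the least extent of the congenic segment and not its measured limit. It held 3 complex events, of which 0 were past the threshold, beside 7.34% of all events. So few events cannot show a difference. Fen1, a flap endonuclease, had exclusion intensities of 123 (set A) and 133 (set B) and inclusion intensities of 109 and 136 (log2 change -0.21). Rtn3, a reticulon of the endoplasmic reticulum, had exclusion at 3108 and 2937 and inclusion at 460 and 487 (-0.16). Ddb1, a DNA damage-binding protein, had exclusion at 144 and 130 and inclusion at 1218 and 1131 (-0.04). None of the 3 exceeded 0.21 in absolute size. The Ppp1r14b event at 0.69, past the threshold, lay 2139 bases outside the edge of this interval, and whether it is within the congenic segment was not tested.

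The study examined 45 genes with an IAP element, an endogenous retrovirus, in an intron, and 6 of these had complex events. Of their 7 complex events 0 were past the threshold, beside 7.34% of all events, and 7 events are too few to read this as a difference. Nudcd3, a chaperone partner of dynein, changed by -0.42, with inclusion at 198 (set A) and 274 (set B) and exclusion at 567 and 588. Tiam1, an exchange factor for Rac1, changed by 0.35 with a dim exclusion path at 77 and 93, and Gbe1, the glycogen branching enzyme, by -0.32. Srpk2, a kinase of splicing factors, changed by 0.14 and -0.24 in its complex events. Of its alternative starts, which are not complex events, one changed by 0.53, past the threshold, and the other by 0.23. The collagen gene Col23a1 changed by -0.04 and the cadherin Cdh19 by 0.07. The complex events of these genes were not placed relative to the IAP elements here.

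The share of complex events past the threshold moved with brightness. Among 271 complex events with an intensity under 102, 32 were past the threshold (11.8%), beside 10.5% of all such events. Among the 982 others it was 73 (7.43%), beside 6.47% of all such events. Split into 5 classes of about equal size by the smallest intensity, the brightest class, from 418 upward, had 9 of 251 past the threshold (3.59%), and the dimmest 32 of 251 (12.7%). The second brightest class, from 224 to 414, did not follow this order, with 29 of 250 (11.6%). The largest change of all, 1.36, was in Mmp12, a protease of macrophages, at exclusion intensities of 43 and 114 with inclusion at 115 and 119. The value of 43 was the lowest intensity in the table. Other dim events, named after their values were seen, were Nav2 with exclusion at 70 and 93 and inclusion at 680 and 445, Zfp180 (0.93) and Stra6 (0.87). The part of brightness in these changes was not tested.

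**Figure D5:**
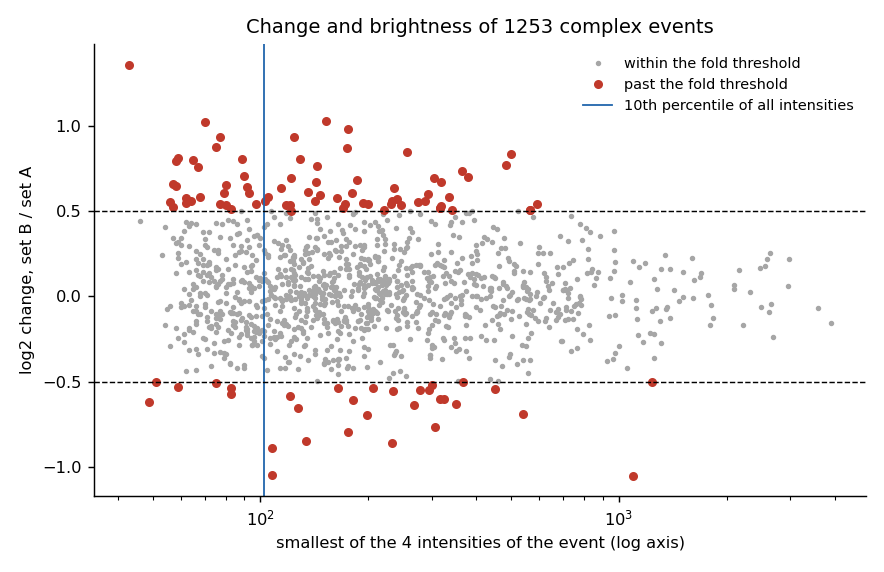
Log2 change, set B over set A (y axis), against the smallest of the 4 intensities of each of 1253 complex events (x axis, log scale), with events past the fold threshold in red. The blue line marks 102, the 10th percentile of all intensities, below which 32 of 271 events were past the threshold.

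Shares past the threshold were lower in the longest complex events. The median span was 7963 bases, against 5889 for all events. Of 175 complex events spanning up to 1000 bases 19 were past the threshold (10.9%), of 321 between 1000 and 5000 bases 28 (8.72%), of 385 between 5000 and 20000 bases 38 (9.87%), of 283 between 20000 and 100000 bases 16 (5.65%) and of 89 longer ones 4 (4.49%). The median of the smallest intensity went from 162 in the shortest class to 274 in the longest, so that length and brightness moved together. Path labels with a numbered node, which the table uses for some complex events, made no visible difference, with 20 of 238 (8.4%) past the threshold against 85 of 1015 (8.37%) without them.

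By chromosome, the counts were small and are given beside the 7.34% over all events. The shares were 14.3% on the X chromosome (5 of 35, 3 with more and 2 with less exclusion in set B) and 13.5% on chromosome 11 (12 of 89, 8 with more and 4 with less). Chromosome 4 had 8 of 61 past the threshold (13.1%), all with more exclusion in set B, among them Plch2, S100pbp, Pabpc4, Urod and C430048L16Rik. Chromosome 15 likewise had 6 of 53 with that direction, and chromosome 8 had 2 of 63. These chromosomes were picked after their values were seen. The events nearest to the threshold were Il17d at -0.501, Slc35b1 at 0.501 and Dnase1 at -0.501 just beyond it, and Ece2 at 0.49999, Fbxw5 at -0.499 and Rreb1 at 0.499 just within.

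Some complex events had entries that limit how their values can be read. In 9 the name covered other than 2 paths, and in 7 of these it covered rows on different chromosomes. In all 7 a row mirrored, with exclusion and inclusion exchanged, the row of an event in another gene, as between A930001N09Rik and Habp4 on chromosome 4. For Nr2c2 the row that gave the value of -0.24 lay on chromosome 18 and mirrored one of Ogfod1. Exoc5 changed by 0.01, Habp4 by 0.14, AI894139 by 0.29 and Ppard by -0.26 on their own chromosomes. Nedd4l had 4 rows for 2 overlapping segments on chromosome 18, and in the second segment exclusion was 201 and 175 and inclusion 5236 and 5460 (-0.26). The span was over 1000000 bases in 5 events, among them Morf4l1, Actr3, Nrbf2 and Aurkc, with changes of -0.17, -0.06, -0.09 and -0.07. Without these 14 irregular events, 104 of 1239 complex events were past the threshold (8.39%).

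Markers of brain cell types differed little between the sets in most cases. Of 50 listed marker genes, 23 had 38 events, and the log2 change of their summed exclusion and inclusion intensity ran from -0.28 in Nnat to 0.29, where the central 90% of all events lay between -0.26 and 0.31. Of the 38, 2 were outside that range, a smaller share than the range leaves out of all events by its definition. Both were low in set B and from the list of immature neurons, whose 4 events had a median of -0.16. They were in Nnat and in Dcx, an alternative end (-0.26). The other events of that list, a second one of Dcx (-0.06) and that of Stmn2 (0.04), lay within the range. The ratio of exclusion to inclusion was past the threshold in 3 of the 38 marker events, beside 7.34% of all events. None of the 3 was complex, and their log2 changes were -1.13 in Csf1r of microglia, 0.68 in Dcx and 0.54 in Alas2 of red blood cells. The part of these cell types in the changes of complex events was not tested. The neuronal markers Snap25 (-0.07) and Syt1 (-0.10) were bright in both sets, with summed intensities of 10315 to 20035. The marker lists held 2 complex events, in Mbp of myelin, which changed by 0.04 with exclusion at 2117 and 2092, and in Itgam of microglia (0.09).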

How the data were processed

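Brain RNA of 6 animals, 3 per genotype, was hybridized as described above, and the number of arrays limits the precision. The intensity values are whole numbers that the authors deposited for each path, already pooled over the arrays of set A and of set B. The sample labels name Affymetrix Power Tools for the array processing. Background correction, normalization, version and genome assembly are not given in the sources used here. The deposited table also holds the authors' own separation scores and q-values for a paired and a standard comparison, which were not used.

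Rows with the same event name were treated as 1 event, which took the log2 ratio of its exclusion path, the largest where several rows existed, with no offset or filter. Families were matched by symbol patterns, with 16 chance matches removed by the meaning of the symbol after values had been seen. RefSeq (GRCm38.p6 table, names only) matched 1088 of 1142 genes, 161 under another symbol, and 4 events lay on another chromosome than their gene there.

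Genes named were the 12 highest and 12 lowest events with all intensities at or above the 10th percentile, the 3 largest changes of each family, the 5 events with the most paths and the 5 widest, and all events of the interval, the IAP genes and the gel assays, with every complex event of a named gene. Some items that met this rule are not reported here. The members, lists and rules were chosen with earlier results of these data known. The calculation was tested on simulated intensities. Tables were read with pandas 2.3.3 and numpy 2.4.6 in Python 3.11.15, intervals of the alternatives came from scipy 1.17.1 and plots from matplotlib 3.10.9.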

Additional observations from a re-analysis of the deposited data

How the results depend on the processing

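No paired analysis was possible because the intensities are pooled over the arrays of a set, and for the same reason no array could be left out in turn. With 50 added to every intensity, 48 complex events were past the threshold (3.83%), against 3.18% of all events, and the median absolute change was 0.13. With a threshold of 1, 5 were past it (0.399%, 60% of them with more exclusion in set B), against 0.224% of all events. Leaving out dim events gave a median of 0.15 and 7.43% of complex events past the threshold, against 6.47% of all events. A threshold of 1.4-fold gave 9.42% of complex events and 8.1% of all events. With genes in place of events, each by its largest change, 9.11% of genes were past it by complex events, against 11.7% by all events. These shares are not alike, because a gene has more values among all events (12948 in 7766 genes) than among complex events (1253 in 1142). More values per gene raise the largest change, so the changed order does not bear on the comparison of events. Centring on the median of all events (0.03) gave 98 complex events (7.82%), against 7.14% of all events. Of the 98, 62.2% had more exclusion in set B in place of 70.5%. The same share over all events was not recomputed with centring, so the 62.2% has no background beside it. The other alternatives stayed within counting error or 1.5 times the count. Leaving out irregular events was chosen after seeing the data. Of 40 named events past the threshold, 14 fell under it with 50 added and 2 with centring, and Fbxw5 passed it with centring (-0.53). No named event past the threshold changed sign.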
